A study of Mus musculus with 6 samples.

Results

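Glycolysis and glycogen metabolism were followed through 42 genes in the quadriceps of AR97Q mice that had exercised or stayed sedentary. The genes were taken from a list of glucose and lactate transporters, glycolytic enzymes, enzymes of the glycerol phosphate shuttle and glycogen enzymes. They were chosen for their function, but with earlier results of these data known. All 42 had a probe on the array and all 42 were well above background on all 6 arrays, among 25005 genes and transcripts tested. Both groups were male transgenic AR97Q mice at 9 weeks of age, bred on C57BL/6J, which carry a human androgen receptor gene with an expanded CAG repeat and serve to model SBMA (spinal and bulbar muscular atrophy), a disease of motor neurons and muscle. The exercise group (3 mice) had run on a forced wheel at low to moderate intensity over several weeks, and its muscle was taken on the day after the last bout. The sedentary group (3 mice) carried the same transgene, and the promoter that drives it is not given in the sources used here. No wild-type mice were on the arrays, so every difference is between exercised and sedentary mice that both carry the transgene, and it cannot be set against healthy muscle. Each mouse gave 1 array.

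Skeletal muscle takes up glucose through a transporter that moves to the cell surface on insulin or contraction, traps it as glucose 6-phosphate, and either stores it as glycogen or splits it to pyruvate and lactate. Many steps are run by families of isoforms, with a form typical of skeletal muscle and others typical of brain, liver, heart or most tissues. Fast glycolytic fibres hold more of many, though not all, of the muscle forms than slow oxidative fibres do. Glycogen is built by glycogen synthase on a glycogenin core and broken down by glycogen phosphorylase, which phosphorylase kinase switches on when the muscle contracts.

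Of the 42 genes, 23 were higher and 3 were lower in the exercise group at an adjusted p under 0.05 (limma, Benjamini-Hochberg over all genes tested), and 16 did not pass. In percent, 54.8% of them were higher, against 11.5% of all genes tested, and 7.14% were lower, against 6.12% (17.6% of all genes passed in either direction). The median difference of the 42 genes was 0.55 on the log2 scale (range -0.80 to 1.71), and that of all genes tested was 0.03. The genes that were higher came from every stage of the route, from glucose entry to lactate export and glycogen breakdown, and 13 of the 23 were isoforms typical of muscle. The 3 that were lower were Slc2a1, Pygb and Gbe1. The split between higher and lower depended on how the arrays were scaled. It was 9 higher and 3 lower after quantile normalization (7.45% and 5.45% of all genes), 15 and 6 in the table of values deposited by the authors (4.69% and 12.8%), and 15 and 10 with no scaling between arrays (2.47% and 45.1%). Quantile normalization made the difference smaller by more than 1.5 times in 13 of the 26 genes that passed, namely Slc2a4 (0.60), Pfkm (0.42), Aldoa (0.00), Tpi1 (0.58), Gapdh (0.23), Pgk1 (0.04), Pgam2 (0.62), Eno3 (0.39), Pkm (0.10), Ldha (0.28), Pygm (0.53), Gyg (0.18) and Ugp2 (0.19). Without scaling the median of all genes was itself -0.45, and the median of the 42 genes lay 0.52 above it. This distance is the same under every scaling by 1 factor per array, because such scaling moves all genes alike. It was 0.28 after quantile normalization and 0.38 after normexp background correction.

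On the arrays, 1 sedentary mouse stood between the groups. Values are the log2 processed signal minus the 75th percentile of the array, so a value of 0 equals that percentile, and values of different genes are not comparable because each probe has its own affinity. Before scaling, the log2 of that percentile was lowest on exercise 3 (7.97), was lower on all exercise arrays than on any sedentary array, and was 8.28, 8.53 and 8.58 for sedentary 1, 2 and 3. Sedentary 1 was the sedentary array closest to the exercise group for 39 of the 42 genes. The same count was not made over all genes, so it cannot be read as particular to these 42. Sedentary 1 lay in the same strip of the slide as the exercise arrays, while sedentary 2 and 3 lay in the other strip. The strip was inferred from the barcode of each array and is not named in the sample labels. Against sedentary 1 alone, the 26 genes that passed were at between 48.1% (Gpd1) and 93.2% (Pfkfb3) of the full difference, with a median of 60.95%. Their sign could not turn, because in each of the 26 the groups did not overlap. With the strip as a block, 0 of the 42 genes passed in limma at an adjusted p under 0.05, although 19 were higher and 2 were lower at an unadjusted p under 0.05. Of all genes 0% were then higher and 0.012% lower at the adjusted threshold. At the unadjusted threshold 4827 of the 25005 genes and transcripts passed in either direction. The calls also depended on every array but sedentary 1. Leaving out exercise 1, 2 or 3 or sedentary 2 or 3 left 0 of the 42 genes past the adjusted threshold in limma. Of all 25005 genes and transcripts, 1 passed it without exercise 1 and 0 passed it without each of the others. At an unadjusted p under 0.05, 25 to 27 of the 42 genes were higher and 4 to 6 lower, beside 6686 to 8146 of all genes in either direction. Leaving out sedentary 1 left 24 higher and 5 lower (13.9% and 8.24% of all genes).

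**Figure D1:**
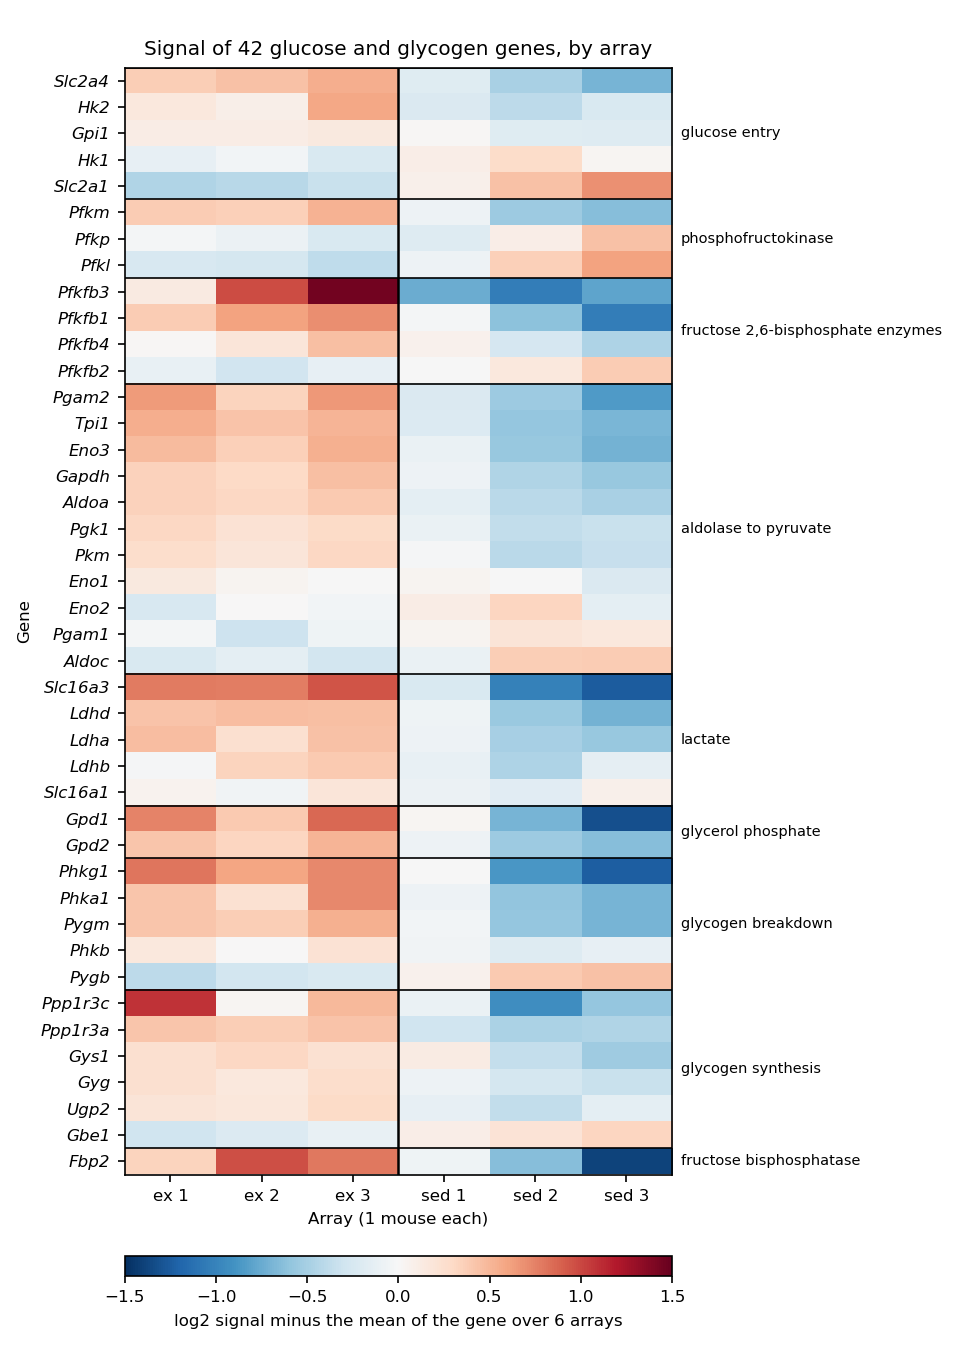
Log2 signal of each of the 42 genes on each of the 6 arrays, minus the mean of that gene over the arrays, with red above and blue below that mean; rows are genes grouped by role and ordered by their difference within it, columns are arrays, and the vertical line parts exercise (ex) from sedentary (sed). Most rows are red in the 3 exercise columns and blue in sedentary 2 and 3, with sedentary 1 between them.

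Glucose enters muscle mainly through GLUT4, the transporter encoded by Slc2a4, while GLUT1, encoded by Slc2a1, is the basal transporter of endothelium and many other cells. The exercise arrays read 7.35, 7.42 and 7.53 for Slc2a4 and the sedentary arrays read 6.80, 6.50 and 6.28. All exercise arrays were above all sedentary arrays, and the difference was 0.91 ± 0.15 (SE), or 1.87-fold (adjusted p = 0.0236). Slc2a1 went the other way. Its values were 1.84, 1.88 and 1.95 with exercise and 2.36, 2.73 and 2.97 without. The exercise arrays were all below the sedentary ones, by 0.80 ± 0.16 (SE), or 1.74-fold lower (adjusted p = 0.0288).

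Hexokinase then phosphorylates glucose, with Hk2 the form of insulin-responsive tissues and Hk1 that of brain and most other cells. Hk2 read 3.62, 3.55 and 4.04 in the exercise group and 3.24, 3.07 and 3.23 in the sedentary group, and Hk1 read 1.93, 2.01 and 1.82 against 2.15, 2.33 and 2.08. Neither set of values overlapped between groups, and neither gene passed. The difference was 0.56 ± 0.15 (SE) for Hk2 (adjusted p = 0.0508) and -0.27 ± 0.10 for Hk1 (adjusted p = 0.121). Gpi1, the isomerase of the next step, differed by 0.24 (adjusted p = 0.116), which became -0.18 after quantile normalization and -0.23 with no scaling.

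Phosphofructokinase commits the sugar to glycolysis, and its subunits are named for muscle (Pfkm), liver (Pfkl) and platelet (Pfkp). Pfkm read 8.43, 8.40 and 8.56 on the exercise arrays against 7.97, 7.50 and 7.41 on the sedentary arrays. The groups did not overlap, and the difference was 0.84 ± 0.16 (SE), 1.79-fold (adjusted p = 0.0270). The liver subunit had values of -0.06, -0.08 and -0.19 with exercise and 0.11, 0.54 and 0.79 without. These did not overlap either, but the difference of -0.59 ± 0.18 did not pass (adjusted p = 0.0683). For Pfkp the values were 0.53, 0.47 and 0.33 against 0.37, 0.65 and 0.99. They overlapped, the difference was -0.23 ± 0.17 (adjusted p = 0.365), and against sedentary 1 alone it was 0.07.

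The bifunctional enzymes of the Pfkfb family make and remove fructose 2,6-bisphosphate, the strongest activator of phosphofructokinase, and this family held the largest difference of the 42 genes. Pfkfb3, whose product has the highest ratio of kinase to phosphatase activity in the family, read 3.92, 4.76 and 5.23 in the exercise group and 3.04, 2.75 and 2.99 in the sedentary group. Every exercise array was above every sedentary one, the exercise arrays spread widely, and the difference was 1.71 ± 0.32 (SE), or 3.27-fold (adjusted p = 0.0264). A second probe of the gene gave 1.72. Against sedentary 1 alone the difference was 1.59.

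Pfkfb1, the form of liver and skeletal muscle, read 4.01, 4.23 and 4.32 against 3.60, 3.01 and 2.59. Sedentary 1 was again the closest of the sedentary arrays. The difference was 1.12 ± 0.26 (SE), 2.18-fold (adjusted p = 0.0360), and 0.59 against sedentary 1 alone. The heart form Pfkfb2 differed by -0.35 (adjusted p = 0.0986) and Pfkfb4 by 0.43 (adjusted p = 0.129), and Pfkfb4 was -0.04 with no scaling.

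From aldolase to pyruvate kinase, 7 of 11 genes were higher and the other 4 did not pass. The largest difference of this stretch was in Pgam2, the muscle form of phosphoglycerate mutase. It read 9.28, 8.97 and 9.30 on the exercise arrays and 8.42, 8.09 and 7.79 on the sedentary arrays. There was no overlap, and the difference was 1.08 ± 0.19 (SE), 2.12-fold (adjusted p = 0.0240). Pgam1, the form of brain and most tissues, read 3.11, 2.83 and 3.08 against 3.18, 3.34 and 3.31. All exercise values were below the sedentary values, and the difference of -0.27 ± 0.11 did not pass (adjusted p = 0.133).

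Aldolase A, encoded by Aldoa, is the muscle form and aldolase C, encoded by Aldoc, that of brain. Aldoa read 10.45, 10.41 and 10.49 with exercise and 9.96, 9.70 and 9.61 without, a difference of 0.70 ± 0.11 (SE), 1.62-fold (adjusted p = 0.0236). This difference was 0.00 after quantile normalization. Aldoc read -0.45, -0.37 and -0.50 against -0.32, 0.14 and 0.16, a difference of -0.43 ± 0.15 (adjusted p = 0.0892). Neither gene had overlapping groups.

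Enolase has a muscle form (Eno3), a form of most tissues (Eno1) and a form of neurons (Eno2). Eno3 read 9.54, 9.43 and 9.60 on the exercise arrays and 8.96, 8.50 and 8.36 on the sedentary arrays. The exercise arrays were all higher, by 0.91 ± 0.17 (SE), 1.88-fold (adjusted p = 0.0253). Eno1 read 5.29, 5.19 and 5.14 against 5.18, 5.14 and 4.92, and Eno2 read -2.18, -1.94 and -1.99 against -1.83, -1.62 and -2.09. Both overlapped between groups. Eno1 differed by 0.13 ± 0.10 (adjusted p = 0.410), with 3 probes that ran from -0.004 to 0.13, and was negative under quantile normalization (-0.09), in the deposited table (-0.03) and with no scaling (-0.35). Eno2 differed by -0.18 ± 0.14 (adjusted p = 0.391) and was 0.02 after normexp background correction.

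Of the enzymes of this stretch that were not set in a pair, all 4 were higher. They were Tpi1 (0.98, adjusted p = 0.0234), which interconverts the triose phosphates, Gapdh (0.73, adjusted p = 0.0272), Pgk1 (0.54, adjusted p = 0.0264), which makes the first ATP of the pathway, and Pkm (0.51, adjusted p = 0.0408), the pyruvate kinase of muscle. All 6 probes of Gapdh were higher, with differences between 0.73 and 0.93. Gapdh is often used as a reference transcript, and here it was 1.66-fold higher in the exercise group, while its difference was 0.23 after quantile normalization.

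Lactate dehydrogenase and the lactate carriers end the route. MCT4, encoded by Slc16a3, is the lactate exporter of glycolytic fibres, and MCT1, encoded by Slc16a1, carries lactate in oxidative fibres and most other cells. Slc16a3 read 6.27, 6.26 and 6.44 in the exercise group and 5.26, 4.48 and 4.24 in the sedentary group. The exercise arrays stood together above all sedentary arrays, by 1.66 ± 0.26 (SE), or 3.17-fold (adjusted p = 0.0234), and by 1.06 above sedentary 1 alone. Slc16a1 read 2.51, 2.40 and 2.64 against 2.36, 2.29 and 2.54. The groups overlapped, with a difference of 0.12 ± 0.11 (adjusted p = 0.454) that was -0.04 in the deposited table and -0.35 with no scaling.

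The genes of the lactate dehydrogenase subunits of glycolytic muscle (Ldha) and of heart and oxidative tissue (Ldhb) both had positive differences. Ldha read 9.33, 9.11 and 9.30 against 8.79, 8.37 and 8.29, a difference of 0.76 ± 0.16 (SE), 1.70-fold (adjusted p = 0.0290). Ldhb read 5.68, 6.03 and 6.09 against 5.59, 5.23 and 5.56. Its exercise arrays were all above the sedentary arrays too, by 0.47 ± 0.16, which did not pass (adjusted p = 0.0828). Ldhd, a mitochondrial dehydrogenase of D-lactate, was higher by 0.89 (adjusted p = 0.0271).

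Both enzymes of the glycerol phosphate shuttle, which moves reducing equivalents from glycolysis into mitochondria, were higher. The cytosolic enzyme Gpd1 read 6.79, 6.44 and 6.91 on the exercise arrays and 6.08, 5.36 and 4.73 on the sedentary arrays. The sedentary arrays were far apart from each other, and the difference was 1.33 ± 0.34 (SE), 2.51-fold (adjusted p = 0.0459), of which 0.64 was left against sedentary 1 alone. The mitochondrial enzyme Gpd2 read 2.94, 2.85 and 3.04 against 2.45, 1.98 and 1.89, a difference of 0.84 ± 0.16, 1.79-fold (adjusted p = 0.0268). A second and dimmer probe of Gpd2 gave -0.08 (adjusted p = 0.793 over all probes), so the call for this gene rested on 1 probe.

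Among the genes of glycogen breakdown, 3 of 5 were higher and 1 was lower. Pygm, the muscle glycogen phosphorylase, read 7.85, 7.80 and 7.97 with exercise and 7.39, 6.85 and 6.73 without. The groups did not overlap, and the difference was 0.88 ± 0.18 (SE), 1.84-fold (adjusted p = 0.0304). Pygb, the brain form, read -0.82, -0.71 and -0.66 against -0.36, -0.04 and 0.00. It was lower on every exercise array, by 0.59 ± 0.12, or 1.51-fold lower (adjusted p = 0.0305), and a second probe gave -0.59 as well.

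Phosphorylase kinase carries the contraction signal to phosphorylase. Its catalytic subunit of muscle, Phkg1, read 5.17, 4.96 and 5.08 in the exercise group and 4.36, 3.49 and 3.12 in the sedentary group. All exercise arrays were higher, and sedentary 1 was the closest sedentary array. The difference was 1.41 ± 0.31 (SE), 2.66-fold (adjusted p = 0.0329), and 0.71 against sedentary 1 alone. The muscle regulatory subunit Phka1 was higher by 0.91 (adjusted p = 0.0346), and the shared subunit Phkb differed by 0.25 (adjusted p = 0.111) and by -0.22 with no scaling.

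On the side of glycogen synthesis, 3 of 6 genes were higher and 1 was lower. Ppp1r3a, which anchors protein phosphatase 1 to glycogen in muscle, had the smallest SE relative to its difference of the 42 genes. It read 3.39, 3.34 and 3.40 on the exercise arrays and 2.68, 2.50 and 2.52 on the sedentary arrays, a difference of 0.81 ± 0.09 (adjusted p = 0.0234). Gyg, the glycogenin that primes the glycogen particle, was higher by 0.45 (adjusted p = 0.0334), and Ugp2, which makes UDP-glucose, by 0.43 (adjusted p = 0.0387). With no scaling both were just below 0, at -0.03 and -0.05.

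Gbe1, the branching enzyme, was the member of this branch that was lower, by 0.41 (adjusted p = 0.0403). Its values were 3.80, 3.89 and 3.98 with exercise and 4.19, 4.30 and 4.42 without, and they did not overlap. Gys1, the muscle glycogen synthase, read 5.74, 5.81 and 5.72 against 5.62, 5.14 and 4.96. The groups did not overlap, but sedentary 1 was close to the exercise arrays and the difference of 0.51 did not pass (adjusted p = 0.0898). Ppp1r3c, another glycogen-targeting subunit, read 5.05, 3.99 and 4.45 against 3.86, 3.04 and 3.39. The difference of 1.07 was past the fold change of 2 but did not pass the test (adjusted p = 0.0662), and the exercise arrays spread over more than 1 log2 unit.

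Fbp2, the muscle fructose bisphosphatase, runs the reverse of the phosphofructokinase step on the way from lactate back to glycogen. It read 0.86, 1.49 and 1.32 in the exercise group and 0.46, -0.11 and -0.86 in the sedentary group. There was no overlap, and the difference was 1.39 ± 0.35 (SE), 2.63-fold (adjusted p = 0.0435).

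The threshold of the study for a differentially expressed gene also asked for a change of 1 or more on the log2 scale in either direction, and 7 of the 42 genes were past it. They were Pfkfb3, Slc16a3, Phkg1, Fbp2, Gpd1, Pfkfb1 and Pgam2, all higher with exercise. Of all genes tested, 1.72% were past this threshold in the higher direction and 1.06% in the lower. After quantile normalization and in the deposited table, 3 of the 42 genes were past it. The share of all genes past it was worked out for the main scaling only.

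Muscle isoforms and their counterparts from other tissues mostly differed in the sign of the change. All 15 muscle isoforms had a positive difference (median 0.91, range 0.51 to 1.66), and on all 15 the exercise arrays were above all sedentary arrays, which held for 25% of all genes tested. Of the 15, 13 were higher, and Hk2 and Gys1 did not pass. Among the 11 isoforms of other tissues, 8 had a negative difference (median -0.27, range -0.80 to 0.47), 2 were lower (Slc2a1 and Pygb) and 0 were higher in limma. At an unadjusted p under 0.05, Ldhb was past in the higher direction and 6 genes in the lower, beside 9249 of all 25005 genes and transcripts in either direction. In 6 of the 11 the exercise arrays were all below the sedentary arrays, which held for 18.2% of all genes tested. The 16 genes placed in neither class had a median of 0.53, with 10 higher and 1 lower.

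The muscle isoforms were positive under each of the 5 other scalings and background corrections, with Aldoa at 0.00 after quantile normalization. Against sedentary 1 alone they ranged from 0.13 to 1.06, where the lack of overlap between groups fixed the sign. Their passing count was less stable, at 5 of 15 after quantile normalization and 10 of 15 both in the deposited table and with no scaling. The isoforms of other tissues had negative medians under the same settings, from -0.18 with array median scaling to -0.74 with no scaling, and -0.17 against sedentary 1 alone. With no scaling 8 of the 11 were lower, in a setting in which 45.1% of all genes were lower and the median of all genes was -0.45. These classes follow the textbook names of the isoforms, and in bulk muscle fewer cells of a type and less RNA per cell cannot be told apart.

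**Figure D2:**
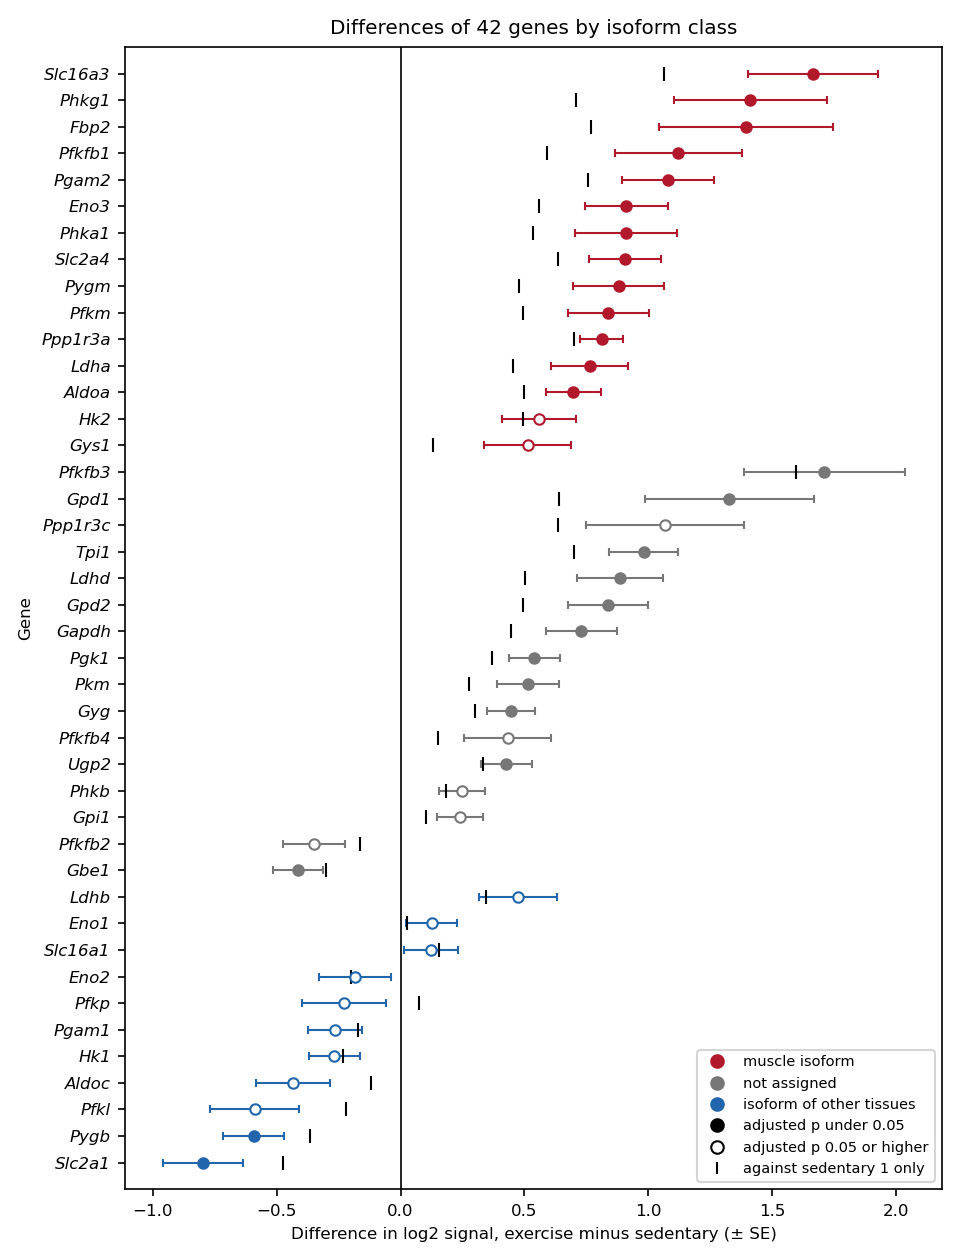
Difference in log2 signal between the exercise and sedentary groups for the 42 genes, as the mean of 3 arrays minus the mean of 3 arrays with its SE, by isoform class; filled points have an adjusted p under 0.05 and black ticks mark the difference against sedentary 1 only. The 15 muscle isoforms lie between 0.51 and 1.66 and the 11 isoforms of other tissues between -0.80 and 0.47, and nearly all ticks lie closer to 0 than the points.

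Because the ratio of paired probes on the same array does not change when the whole array is scaled by 1 factor, 12 pairs were compared as ratios. In each pair the log2 signal of the muscle form minus that of the other form was taken per array (for Gpd1 and Gpd2, cytosolic minus mitochondrial). The size of a ratio depends on the probes and is not a ratio of transcripts, but its change between groups is a measure of unequal change. A shift that differs between bright and dim probes would stay in it. All 12 differences were positive, also against sedentary 1 alone. In 10 pairs the exercise arrays were all above the sedentary arrays, which fixed the sign against sedentary 1 alone. Each of the 10 had an exact permutation p = 0.1 (two-sided), the smallest that 3 arrays against 3 can give.

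The ratio of Slc2a4 to Slc2a1 was 5.51, 5.54 and 5.58 on the exercise arrays and 4.44, 3.77 and 3.31 on the sedentary arrays. The exercise mice were within 0.1 of each other while the sedentary mice were spread, and the difference was 1.71, or a 3.26-fold shift towards the GLUT4 transcript. For Slc16a3 over Slc16a1 the values were 3.76, 3.86 and 3.79 against 2.89, 2.19 and 1.70, a difference of 1.54. For Pygm over Pygb they were 8.67, 8.51 and 8.62 against 7.76, 6.89 and 6.73, a difference of 1.47. Here too the exercise mice lay close together, and sedentary 1 was nearest to them.

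Smaller shifts were found for Pfkm over Pfkl (1.43), Pgam2 over Pgam1 (1.35), Aldoa over Aldoc (1.13), Eno3 over Eno2 (1.10), Pfkm over Pfkp (1.07), Hk2 over Hk1 (0.83) and Eno3 over Eno1 (0.79). Quantile normalization, which is not a scaling by 1 factor, made 5 differences smaller by more than 1.5 times, to 0.42 for Aldoa over Aldoc, 0.49 for Eno3 over Eno2, 0.67 for Pfkm over Pfkp, 0.47 for Eno3 over Eno1 and 0.03 for Ldha over Ldhb. In 2 pairs the groups overlapped. The ratio of Ldha to Ldhb was 3.65, 3.08 and 3.21 against 3.20, 3.14 and 2.74, a difference of 0.29 (exact permutation p = 0.4). The ratio of Gpd1 to Gpd2 was 3.85, 3.59 and 3.87 against 3.63, 3.38 and 2.84, a difference of 0.49 (exact permutation p = 0.2).

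**Figure D3:**
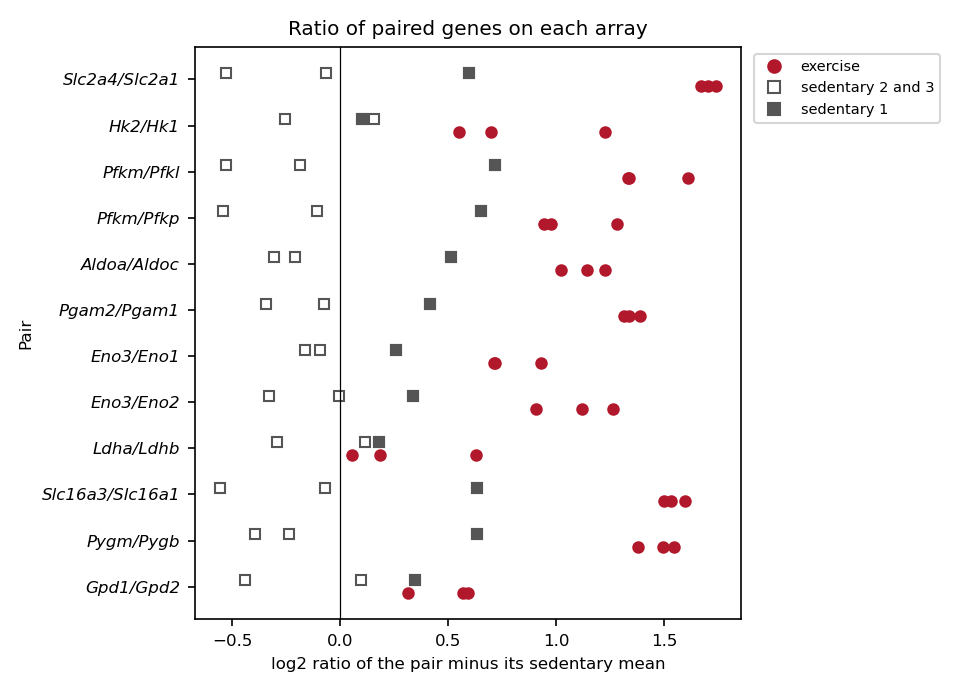
Log2 ratio of the paired genes on each array minus the mean of the 3 sedentary arrays for that pair; red points are exercise arrays, open squares sedentary 2 and 3 and filled squares sedentary 1. In 10 of 12 pairs the exercise points lie to the right of all squares, and Ldha over Ldhb and Gpd1 over Gpd2 overlap.

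The sequence around the transcription start was read for the same classes. RefSeq promoter windows (build GRCm38.p6, 250 bases before to 50 after the start) were at hand for 40 of the 42 genes, all but Slc2a4 and Gpd1. The motif CAGCTG, an E box of the kind bound by myogenic factors, reads the same on both strands. It was in a window of 9 of 14 muscle isoforms (Aldoa, Eno3, Fbp2, Gys1, Pfkfb1, Pgam2, Phka1, Ppp1r3a and Pygm, 64.3%) of 6 of the 15 genes in neither class (40%) and of 0 of 11 isoforms of other tissues, against 18.3% of all genes in the promoter table. By window the shares were 39.1% for the muscle isoforms, 28.6% for the genes in neither class and 16.3% for the whole table. In Aldoa and Eno3 the match lay after the start. A match is a run of letters and not a site shown to be bound, and the count of matches was not tested. The 250 bases before the start are printed for a pair of mutases and a pair of phosphorylases, pairs chosen because the muscle form was higher and holds the motif before its start, with each CAGCTG in capitals. The windows of other muscle forms that were higher, such as Pfkm and Slc16a3, held none. Pgam2 lies at chr11:5803797-5804046 on the minus strand, Pgam1 at chr19:41911621-41911870, Pygm at chr19:6384158-6384407 and Pygb at chr2:150786546-150786795, the last 3 on the plus strand. All are read 5′ to 3′ towards the start.
Pgam2: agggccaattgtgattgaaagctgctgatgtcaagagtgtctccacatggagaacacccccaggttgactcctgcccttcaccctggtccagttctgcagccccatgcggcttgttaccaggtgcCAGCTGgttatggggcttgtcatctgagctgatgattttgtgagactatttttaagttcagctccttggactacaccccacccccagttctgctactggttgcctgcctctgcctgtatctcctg
Pgam1: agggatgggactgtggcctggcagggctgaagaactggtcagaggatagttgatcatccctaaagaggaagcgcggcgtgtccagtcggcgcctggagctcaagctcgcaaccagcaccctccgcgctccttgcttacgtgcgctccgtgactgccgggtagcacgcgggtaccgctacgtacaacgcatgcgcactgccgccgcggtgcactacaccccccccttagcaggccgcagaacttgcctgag
Pygm: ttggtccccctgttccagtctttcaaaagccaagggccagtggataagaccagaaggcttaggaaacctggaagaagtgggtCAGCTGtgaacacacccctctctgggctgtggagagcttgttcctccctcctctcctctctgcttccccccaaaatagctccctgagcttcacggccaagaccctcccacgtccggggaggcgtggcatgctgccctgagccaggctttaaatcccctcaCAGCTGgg
Pygb: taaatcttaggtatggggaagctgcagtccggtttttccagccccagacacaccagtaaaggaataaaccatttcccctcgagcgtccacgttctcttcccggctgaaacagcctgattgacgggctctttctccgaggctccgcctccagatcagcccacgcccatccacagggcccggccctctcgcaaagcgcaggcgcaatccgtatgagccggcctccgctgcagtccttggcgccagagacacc
Pgam2 held 1 match, which began 125 bases before the start, and Pygm held 2, which began 168 and 8 bases before it.

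Markers of muscle and of its fibre types moved with these genes. All 7 skeletal muscle markers (Ckm, Acta1, Myh4, Myh1, Mb, Tnnt3 and Des) were well above background on every array, as was Slc2a4. Of the 7, 5 were higher with exercise (71.4%, against 11.5% of all genes). Of 12 fast fibre markers, 10 were higher (83.3%) and all 12 had a positive difference (median 0.96). Myh1 and Myh2 did not pass and overlapped between groups, and Myh2 differed by -0.04 against sedentary 1 alone. Over the arrays the fast markers deviated from their gene means by 0.49, 0.38 and 0.62 in the exercise group and by -0.07, -0.63 and -0.78 in the sedentary group. The muscle isoforms of the 42 genes deviated by 0.44, 0.42 and 0.58 and by -0.11, -0.57 and -0.77. The skeletal muscle markers, some of which are also fast fibre markers, deviated by 0.40, 0.35 and 0.50 and by -0.13, -0.50 and -0.61. The members in neither isoform class deviated by 0.29, 0.22 and 0.40 and by -0.09, -0.40 and -0.41. All these sets of values followed each other array by array. Each set was made mostly of genes with a positive difference, so the shared pattern does not tell the sets apart. The part of fibre composition in the result was not tested.

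Of 10 slow fibre markers, 1 was higher (Myl3, 10%, against 11.5% of all genes) and 2 were lower (Tnni1 and Atp2a2, 20%, against 6.12%). Of the 10 markers, 8 had a negative difference (median -0.42). Their array deviations were -0.72, -0.38 and 0.47 with exercise and 0.52, -0.03 and 0.14 without, so exercise 3 stood with the sedentary arrays. Slc2a1 and Pygb, which were lower, are not confined to muscle fibres, and the markers of other cells were read beside them. Of 6 Schwann cell markers 1 was lower in limma (16.7%, against 6.12% of all genes), and 2 were at an unadjusted p under 0.05. All 6 had a negative difference. Their summed level was 5.32 to 5.58 with exercise and 5.51 to 5.91 without. Of 4 endothelial markers 0 passed in limma (0 also at an unadjusted p under 0.05), with a summed level of 3.85 to 4.27 and 3.83 to 4.14. Of 4 red blood cell markers 0 passed, with 7.97 to 8.46 and 7.23 to 8.32. Of 4 smooth muscle markers Myh11 was lower by 0.95 (adjusted p = 0.0234) and Acta2 was higher by 1.32 (adjusted p = 0.0234), while Cnn1 differed by -1.66 (adjusted p = 0.0815) and Tagln by -0.52 (adjusted p = 0.0656). The part of these cells in the lower values of Slc2a1 and Pygb was not tested.

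**Figure D4:**
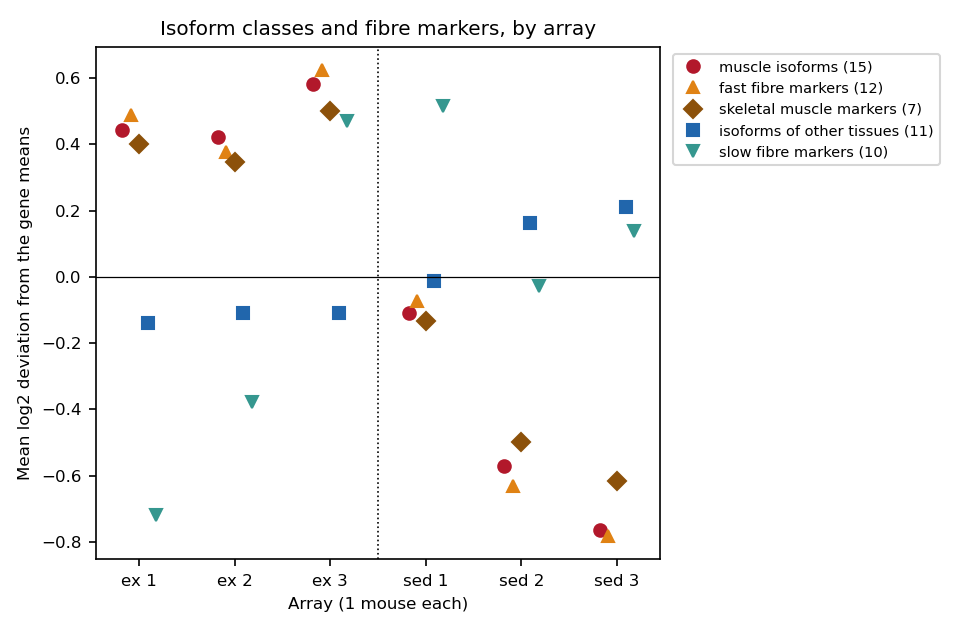
Mean deviation of the log2 signal from the gene means on each array for the muscle isoforms and isoforms of other tissues among the 42 genes and for markers of skeletal muscle, fast fibres and slow fibres; the dotted line parts exercise (ex) from sedentary (sed) arrays and the number of genes is in brackets. Muscle isoforms run from 0.42 to 0.58 in the exercise group and from -0.77 to -0.11 in the sedentary group, close to the fast fibre markers on each array. Skeletal muscle markers run from 0.35 to 0.50 and from -0.61 to -0.13. Slow fibre markers are at 0.47 in exercise 3 and 0.52 in sedentary 1.

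A further 48 genes of glucose and glycogen metabolism, listed for their function but with earlier results of these data known, were read from the same fit. Of these 41 were tested, 7 were higher (17.1%, against 11.5% of all genes) and 1 was lower (2.44%, against 6.12%), with a median difference of 0.14. The largest rises were in Slc37a4 (1.21, adjusted p = 0.0464), the glucose 6-phosphate carrier of the endoplasmic reticulum, Pgm1 (1.11, adjusted p = 0.0266), the phosphoglucomutase that links glycogen to glycolysis, and Bpgm (0.93, adjusted p = 0.0234), the bisphosphoglycerate mutase. The gene that was lower was Phka2, the liver counterpart of Phka1, by 0.64 (adjusted p = 0.0240). Chosen after its value was seen, Bsg, the chaperone of the lactate carriers, was higher by 0.67 (adjusted p = 0.0234).

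Several regulators on this list did not pass, among them Hif1a (-0.29, adjusted p = 0.0975), Mlxipl (0.12, adjusted p = 0.413), the glycogen synthase kinases Gsk3a (0.35, adjusted p = 0.0530) and Gsk3b (-0.13, adjusted p = 0.400), Tbc1d4 (0.62, adjusted p = 0.0958), which holds GLUT4 inside the cell, and Txnip (0.30, adjusted p = 0.490), which limits glucose uptake. These regulators were chosen after their values were seen.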

How the data were processed

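Quadriceps RNA of 3 exercised and 3 sedentary AR97Q mice was measured on Agilent SurePrint G3 mouse arrays with a single dye. Feature Extraction 12.1.0.3, run by the authors at default settings, gave every spot a background-subtracted linear intensity, the processed signal, which was deposited per array together with flags on spot quality. A deposited table holds the same intensities times 1 factor per array. No spot was saturated. The share of probes well above background ran from 54.6 to 59.9% over the arrays, and the number of arrays limits the precision.

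Control and flagged spots were left out, spots of the same probe were averaged, and the log2 processed signal was set relative to the 75th percentile of its array. Kept were the probes that passed the background flag on 3 or more of the 6 arrays (32726 of 56605), which were named through transcript accessions in a GRCm38.p6 table, used for names only. Of a gene's probes the brightest was used. The 42 genes had 72 probes, of which 71 were tested, and in 20 of 22 genes with several tested probes all had the same sign (not in Gpd2 and Eno1). Whether a probe also binds transcripts of a related isoform was not checked.

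The exercise and sedentary groups were compared in R 4.3.3 by the moderated two-sided test of limma 3.58.1, with Benjamini-Hochberg adjustment over 25005 genes and transcripts, and pairs with an exact permutation test. The script was tested on simulated data. The members, lists and tests were chosen with earlier results of these data known. All 42 genes were named, with full values for those past the threshold of the study and for both genes of each pair, and of the other pathway genes the 3 largest rises and up to 3 largest falls among those that passed (1 fell). Samples with the same replicate number did not deviate together (r = 0.02, 0.08 and 0.04). Alternatives were other scalings and background correction, the deposited table, other probe filters, the mean of a gene's probes, blocks, array weights, trended and robust eBayes, other thresholds and each array left out. The count of CG pairs in promoters was added after the promoters were seen, and so were differences relative to the median of all genes. Arrays were treated as independent mice.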

Additional observations from a re-analysis of the deposited data

How the results depend on the processing

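Quantile normalization left 9 genes higher, 3 past the fold change as well, a median of 0.26 and 5 other pathway genes. Array median scaling left 1 lower. No scaling gave 15 higher, 10 lower, a median of 0.076, 11897 of all genes and 20 other pathway genes. The deposited table gave 15 higher, 6 lower and 3 past the fold change. Normexp gave 7 lower, 8179 of all genes and 16 other pathway genes, and no filter on dim probes 11659 of all genes. Array weights gave 7 lower, 11 past the fold change, 8751 of all genes and 18 other pathway genes. At an adjusted p under 0.10, 6 were lower, and at an unadjusted p under 0.05, 8, where 9249 of all genes passed in either direction. With the strip as a block and within the strip that holds both groups, 0 were higher, 0 lower and 0 past the fold change, with 0 other pathway genes and 3 and 0 of all genes. The replicate number does not pair the mice. With it as a block 0 were higher, 0 lower and 0 past the fold change, with 0 of all genes and 0 other pathway genes in limma. At an unadjusted p under 0.05, 28 of the 42 genes were then higher and 7 lower, beside 8591 of all genes in either direction. Leaving out 1 array gave 0 to 24 higher, 0 to 5 lower, 0 to 15 past the fold change, a median of 0.50 to 0.67, 0 to 5536 of all genes and 0 to 13 other pathway genes, and the upper values were without sedentary 1. Signs turned for Gpi1 (-0.18 quantile, -0.23 no scaling), Eno1 (-0.085 quantile, -0.35 no scaling, -0.032 deposited table), Slc16a1 (-0.35 no scaling, -0.037 deposited table), Pfkfb4 (-0.041), Gyg (-0.026), Ugp2 (-0.045) and Phkb (-0.22) with no scaling, Eno2 (0.018 normexp) and Pfkp (0.075 with the strip as a block and within the strip). None of the 12 pair ratios changed sign under the alternatives run, but quantile normalization made 5 of them smaller by more than 1.5 times (down to 0.03 for Ldha over Ldhb). The cause of these changes was not tested.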

Other observations

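CG pairs were counted in the promoter windows. The windows of the muscle isoforms held a median of 6 CG pairs and those of the isoforms of other tissues 20, while the median over all windows of the promoter table was 7. Pgam2 held 1 and Pgam1 held 30, and Pygm held 4 and Pygb held 21. Slc16a3 held 36 and Slc16a1 42. Eno3 held 3, the windows of Eno1 held 14 to 25 and Eno2 held 15. The windows of Pfkm held 4 to 12, Pfkl held 20 and Pfkp held 21. In other pairs the muscle form did not hold fewer in every window. Hk2 held 25 and the windows of Hk1 held 20 and 1, and Ldha held 30 and 13 and Ldhb 17. Windows of Aldoa held up to 24 while those of Aldoc held 8 and 3. The other motifs searched were found in both classes. ACGTG, the core of the hypoxia response element, was in a window of 7 of 14 muscle isoforms and 6 of 11 isoforms of other tissues, on either strand, and 21.8% of all genes in the table held it. CACGTG, an E box that contains ACGTG, was in 3 of 14 and 1 of 11 (8.09% of all genes), and TATAAA was in 2 of 14 and 2 of 11 (15.7%). These counts are descriptions of sequence and were not tested.

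Markers of other cells were read from the same fit. Of 6 adipocyte markers 1 was higher (Lep, 0.35, adjusted p = 0.0415), or 16.7% against 11.5% of all genes, and the other 5 had negative differences. The adipocyte list deviated by -0.88, -0.44 and 0.53 on the exercise arrays and by 0.27, 0.46 and 0.06 on the sedentary arrays, so exercise 3 was the highest of all. Of 6 macrophage, 4 fibroblast, 3 neuron and brain markers and 1 liver marker that were tested, 0 passed in limma, and 0 were past an unadjusted p under 0.05.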
